A study of Drosophila melanogaster with 3 samples.

Results

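Between the start sites of divergent gene pairs, 581 peaks of the Drosophila melanogaster protein CG9609 were found, of 3747 peaks in all (15.5%). A divergent pair is 2 neighbouring genes on opposite strands that are transcribed away from each other, so that their transcription start sites (TSSs) stand back to back. A peak was taken when its summit, the highest point of the peak, lay within 500 bp of a protein-coding TSS and upstream of the nearest one, and when another protein-coding gene on the opposite strand had a TSS within 500 bp upstream of that nearest TSS. The position alone chose the peaks, with no use of their signal. Of 2020 peaks within 500 bp of a protein-coding TSS, 1677 had their summit upstream of it. The 581 peaks made up 34.6% of these upstream peaks (95% Wilson interval 32.4 to 37.0%). The other 1096 upstream peaks lay at promoters with no such second gene and are called single-gene peaks here. The 581 peaks fell into 557 distinct pairs, 24 of them with 2 peaks, and involved 1114 genes.

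The peaks came from chromatin immunoprecipitation followed by sequencing (ChIP-seq) of whole embryos of mixed sex, collected at 0 to 24 h. They belonged to a transgenic line with stable expression of CG9609 carrying green fluorescent protein (GFP) at the C-terminal end, and an antibody against GFP was used. The peaks are those of the set that the authors thresholded for ranks that repeat between replicates, called the reproducible set here. The 3 biological replicates form 1 group, CG9609-GFP, so no comparison between conditions was possible. The labels used here name neither the promoter that drives the fusion protein nor the state of the endogenous gene, and whole embryos pool all cell types and stages.

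Back-to-back gene pairs are common in the compact fly genome, and many of their members are housekeeping genes that are active in most cells. Such pairs often share a stretch of DNA that is kept free of nucleosomes and from which RNA polymerase II starts in both directions. In flies, this type of promoter is known for the DNA replication-related element (DRE), which the factor DREF binds, for sites of the insulator protein BEAF-32, and for Motif 1, which the factor M1BP binds. TATA boxes and GAGA sites are more typical of regulated genes that stand alone.

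The DNA between the TSSs is shown for 11 pairs, because the words discussed with the results lie in it. Each interval has at most 300 bases and overlaps no annotated exon. It is printed from the plus strand of build dm6, without the 2 TSS bases themselves. Capitals mark the words ATCGATAG and CAACACTG on either strand, and adjoining or overlapping copies run together in capitals. The first 5 intervals are those of the strongest peaks that met these conditions. Shc and Atat face each other over chr3L:9426759-9427009, with the summit at base 141 of the interval. For Art3 and mRpS10 the interval is chr3R:15229409-15229664 and the summit is at base 109. For Tcs5 and CHMP2B it is chr3L:5139396-5139618, with the summit at base 106. For SLIRP2 and Mkk4 it is chr3R:8650797-8651083, with the summit at base 174. For Mnat9 and CG1792 it is chr3R:31616161-31616302, with the summit at base 7. The words are absent from 3 of these 5, and in the other two they stand more than 50 bp from the summit.
Shc and Atat: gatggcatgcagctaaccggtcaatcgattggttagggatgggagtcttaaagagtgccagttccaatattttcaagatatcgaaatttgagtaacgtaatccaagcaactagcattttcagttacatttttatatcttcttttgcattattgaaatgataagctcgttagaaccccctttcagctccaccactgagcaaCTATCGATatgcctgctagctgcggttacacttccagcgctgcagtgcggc
Art3 and mRpS10: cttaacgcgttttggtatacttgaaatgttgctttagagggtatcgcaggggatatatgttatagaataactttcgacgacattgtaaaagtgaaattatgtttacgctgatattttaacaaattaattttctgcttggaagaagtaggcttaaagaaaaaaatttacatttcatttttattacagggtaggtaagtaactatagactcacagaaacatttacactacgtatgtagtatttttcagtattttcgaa
Tcs5 and CHMP2B: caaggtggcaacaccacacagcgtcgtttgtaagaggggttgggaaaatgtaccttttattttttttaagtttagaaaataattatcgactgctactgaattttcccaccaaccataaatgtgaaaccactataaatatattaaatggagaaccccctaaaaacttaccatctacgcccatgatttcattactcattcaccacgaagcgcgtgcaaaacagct
SLIRP2 and Mkk4: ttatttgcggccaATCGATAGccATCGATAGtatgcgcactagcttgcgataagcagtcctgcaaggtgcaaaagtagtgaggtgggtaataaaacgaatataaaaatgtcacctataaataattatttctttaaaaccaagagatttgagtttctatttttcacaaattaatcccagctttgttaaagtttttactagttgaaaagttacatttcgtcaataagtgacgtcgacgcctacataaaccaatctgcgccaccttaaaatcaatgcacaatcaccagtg
Mnat9 and CG1792: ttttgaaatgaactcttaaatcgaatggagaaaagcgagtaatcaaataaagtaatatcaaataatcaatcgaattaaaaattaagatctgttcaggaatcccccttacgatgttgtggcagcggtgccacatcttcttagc

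The next intervals are examples of peaks with ATCGATAG, a word of the DRE type, within 50 bp of the summit, and were chosen after the values were seen. They hold ranks 373, 399 and 1158 by signal, and not every stronger peak with the word is shown. Acn and Ttc19 face each other over chr2L:19045149-19045354, with the summit at base 142. For RpS25 and CG4820 the interval is chr3R:11216288-11216534 and the summit is at base 86. For EloB and Srp14 it is chr3R:20579851-20580114, with the summit at base 76. In all 3 the word is part of the palindrome CTATCGATAG, which is read as the same word on both strands.
Acn and Ttc19: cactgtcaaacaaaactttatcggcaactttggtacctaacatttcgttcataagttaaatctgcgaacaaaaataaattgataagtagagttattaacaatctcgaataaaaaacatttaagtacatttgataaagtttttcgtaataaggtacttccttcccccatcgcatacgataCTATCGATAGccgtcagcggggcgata
RpS25 and CG4820: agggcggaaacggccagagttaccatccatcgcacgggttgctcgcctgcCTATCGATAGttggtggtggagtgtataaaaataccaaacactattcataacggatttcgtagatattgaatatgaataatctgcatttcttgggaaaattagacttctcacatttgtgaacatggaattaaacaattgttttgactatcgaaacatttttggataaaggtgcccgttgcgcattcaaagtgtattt
EloB and Srp14: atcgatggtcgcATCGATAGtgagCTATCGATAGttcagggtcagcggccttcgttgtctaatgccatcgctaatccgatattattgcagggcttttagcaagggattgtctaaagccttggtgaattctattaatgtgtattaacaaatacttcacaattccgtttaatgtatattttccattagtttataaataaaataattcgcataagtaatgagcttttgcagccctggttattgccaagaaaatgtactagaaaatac

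The last intervals are examples of peaks with CAACACTG within 50 bp of the summit, chosen in the same way. They hold ranks 691, 889 and 1366 by signal, and stronger peaks with the word are not shown. The integrin gene mys and the bromodomain gene fs(1)h face each other over chrX:8061437-8061644, with the summit at base 184 and 2 copies of the word. For CG10214 and CG10375 the interval is chr3R:23767489-23767711 and the summit is at base 70. For Ppt1, a lysosomal thioesterase gene, and Ogg1, a DNA repair gene, it is chrX:8690228-8690326, with the summit at base 10.
mys and fs(1)h: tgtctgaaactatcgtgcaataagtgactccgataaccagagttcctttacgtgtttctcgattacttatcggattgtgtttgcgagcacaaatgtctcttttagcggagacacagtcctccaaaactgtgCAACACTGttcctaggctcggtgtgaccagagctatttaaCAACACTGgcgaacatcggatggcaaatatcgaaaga
CG10214 and CG10375: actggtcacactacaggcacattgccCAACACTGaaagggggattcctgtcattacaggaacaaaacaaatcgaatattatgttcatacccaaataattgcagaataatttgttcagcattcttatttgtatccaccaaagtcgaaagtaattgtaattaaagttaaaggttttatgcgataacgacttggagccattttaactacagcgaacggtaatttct
Ppt1 and Ogg1: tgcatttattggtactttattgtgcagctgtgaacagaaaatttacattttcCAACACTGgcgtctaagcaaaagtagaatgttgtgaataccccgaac

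The replicates were compared through their own peak lists, which hold 30000, 29898 and 30000 regions of peaks and background. The 3747 strongest regions of each, as many as in the reproducible set, gave means and SDs over the 3 replicates. The 3747 weakest regions served as background. Read depth was unknown. Replicate 1 stood apart in that 7.31% of its strongest regions had their summit in a coding exon away from promoters, against 0.774% in replicate 2 and 0.294% in replicate 3. Its strongest regions also held fewer divergent-pair peaks, 498, against 570 in replicate 2 and 560 in replicate 3. As a share of upstream promoter summits these were 34.6%, 34.5% and 34.2% in replicates 1, 2 and 3, so that the replicates differed in number but hardly in share.

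Summits of CG9609-GFP peaks lay between the TSSs of more than 1 in 4 divergent pairs. The annotation holds 1995 such pairs with 3815 genes, and 557 of the pairs (27.9%, Wilson interval 26.0 to 29.9%) had at least 1 of the 581 peaks. Over the strongest regions of the replicates the share was 23.96%, 27.2% and 26.8%, a mean of 25.96% ± 1.75 (SD, n = 3), and over the weakest regions it was 1.02% ± 0.126 (SD, n = 3). The strongest regions thus held such peaks at 24.9 percentage points ± 1.66 more of the pairs, in 3 of 3 replicates (exact two-sided sign-flip permutation test, p = 0.25). That is the smallest p that 3 replicates allow, so no comparison here could pass a threshold of 0.05. Of the 10153 genes in no divergent pair, 916 (9.02%) had an upstream peak, and 8.51% ± 0.639 over the replicates (SD, n = 3). A gene of a pair can be counted for a peak that lies nearer to its partner, and 1114 of the 3815 genes in pairs (29.2%) had a peak by that count. By the nearest TSS alone, 578 of the 3815 (15.2%) did, and 14.1% ± 1.00 over the replicates (SD, n = 3). The replicate values of genes in pairs did not overlap those of genes in no pair in either count.

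The same held per length of DNA. The intervals between paired TSSs cover 438 kb and held 1.21 summits per kb, with 1.13 ± 0.0906 over the replicates (SD, n = 3). The first 125 bp upstream of genes in no pair held 0.299 summits per kb, the next 125 bp held 0.188 and the stretch from 251 to 500 bp held 0.107. The replicates gave 0.270 ± 0.0151 summits per kb for the first of these stretches (SD, n = 3), and in each replicate the pair intervals were above it. Among the weakest regions the pair intervals held 0.0449 ± 0.00475 summits per kb and the first 125 bp upstream of genes in no pair 0.0382 ± 0.00981 (SD, n = 3 each), a difference smaller than the second SD.

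**Figure D1:**
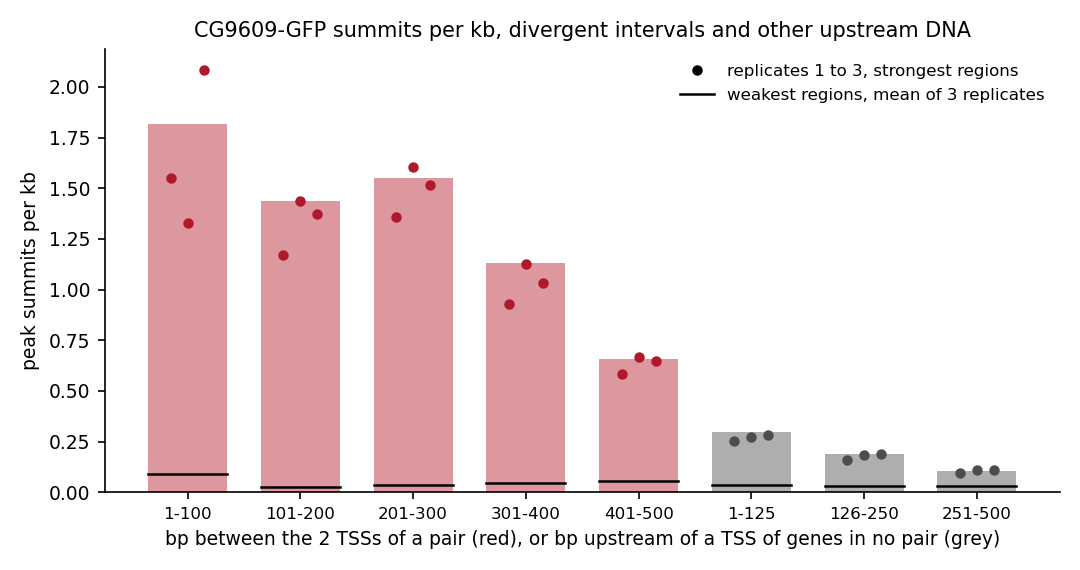
Summits of CG9609-GFP peaks per kb between the TSSs of divergent pairs (red, by the distance between the TSSs in bp) and in stretches upstream of genes in no pair (grey). Bars are the reproducible set, points are the strongest 3747 regions of replicates 1 to 3, and black lines are the mean of the weakest 3747 regions. Every red bar is above every grey one, and no line is above 0.0886 summits per kb.

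The share of pairs with a peak changed with the distance between the TSSs. It was 15.4% for 429 pairs with TSSs 1 to 100 bp apart, 23.2% for 357 pairs at 101 to 200 bp, 37.6% for 542 pairs at 201 to 300 bp, 33.5% for 400 pairs at 301 to 400 bp and 26.2% for 267 pairs at 401 to 500 bp. Pairs were classed by their closest TSSs, and a peak between other TSSs of the same pair counted too. At 1 to 100 bp 66 pairs had a peak, while only 43 peaks were assigned to TSSs that close. The Wilson interval of the class at 201 to 300 bp, 33.7 to 41.8%, did not overlap that of the 3 classes at 1 to 100, 101 to 200 and 401 to 500 bp, and it overlapped that of the class at 301 to 400 bp. The replicates gave 14.3% ± 2.35, 21.0% ± 1.28, 35.9% ± 3.36, 30.3% ± 2.27 and 24.6% ± 1.85 in the same order (SD, n = 3 each). Among the weakest regions no class averaged above 2.25%. Per kb of interval the order was another one, since short intervals hold little DNA: 1.82 summits per kb at 1 to 100 bp and 1.55 at 201 to 300 bp, against 0.658 at 401 to 500 bp. The replicates at 1 to 100 bp, with 1.55, 1.33 and 2.08 summits per kb, overlapped those at 201 to 300 bp, with 1.36, 1.60 and 1.52.

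The position of the summits between the start sites is partly set by the rule. It is also coarser than single bases. The regions were 390 bp wide in the median, wider than most of the intervals, and the labels give fragments of 200 to 800 bp. Only the summit is placed between the TSSs. The median distance was 67 bp upstream of the nearest TSS (quartiles 36 and 100 bp, highest 244 bp) and 198 bp upstream of the partner's TSS (quartiles 145 and 275 bp). The TSSs themselves were 281 bp apart (median over peaks, quartiles 224 and 363 bp, from 19 to 498 bp). Pairs with a peak had their closest TSSs 265 bp apart in the median (n = 557), and pairs without one 231 bp apart (n = 1438). Single-gene peaks lay 131 bp upstream (median, quartiles 65 and 241 bp). Over the replicates the median was 67.2 bp ± 4.54 for divergent-pair peaks and 141 bp ± 5 for single-gene peaks, a difference of -73.8 bp ± 1.76 (SD, n = 3). No test is given, because the rule keeps the summit in the nearer part of the interval, at most at its midpoint, and so bounds this distance more tightly than for single-gene peaks. As a share of the interval, the summit lay at 0.26 from the nearest TSS (median), where an even spread over the part the rule allows would give 0.25.

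The distance to the nearest TSS was longer in wider intervals up to about 300 bp and nearly level beyond. Here each peak was classed by the TSSs it was assigned to, not by the closest TSSs of its pair. The median distance to the nearest TSS was 18 bp for TSSs 1 to 100 bp apart, 43 bp at 101 to 200 bp, 73 bp at 201 to 300 bp, 81.5 bp at 301 to 400 bp and 82 bp at 401 to 500 bp. As a share of the interval the medians were 0.245, 0.326, 0.288, 0.231 and 0.201 in the same order. Over all 581 peaks Spearman's rho between both distances was 0.427, a description only, since the midpoint bounds the first by the second.

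**Figure D2:**
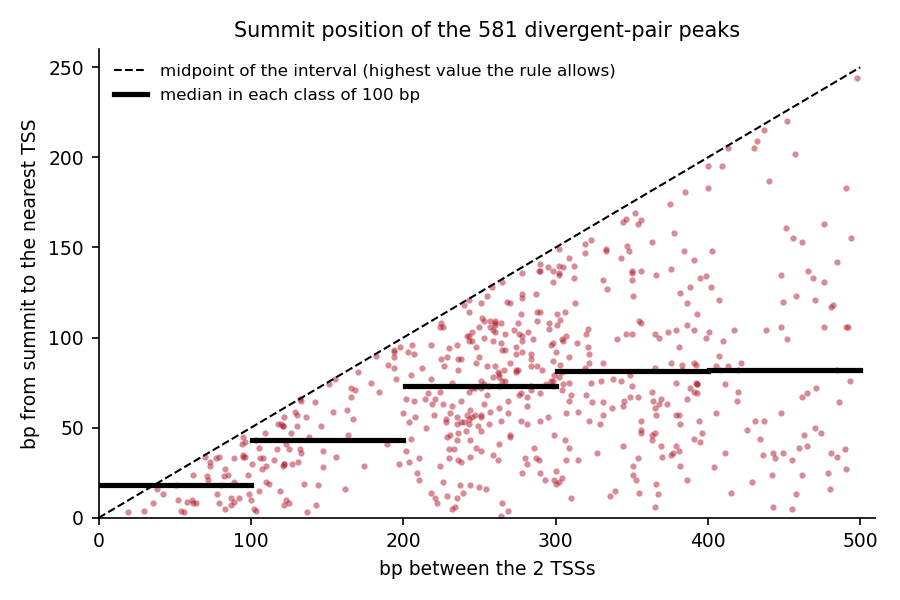
Distance from the summit to the nearest TSS (bp) against the distance between both TSSs (bp), 1 point for each of the 581 peaks. Thick bars are class medians, from 18 bp in the narrowest class to 82 bp in the widest, and the dashed line is the midpoint, above which the rule allows no peak.

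Which of the 2 genes was the nearer one was often stable between replicates. Of the 581 peaks, 511 had a summit within 100 bp in all 3 whole replicate lists, and these summits spanned 39 bp (median, quartiles 21 and 64 bp). The nearest gene was the same in all 3 replicates for 392 of the 511 (76.7%). Where the distances to the 2 TSSs differed by over 100 bp, this held for 275 of 287 (95.8%), and where they differed by at most 50 bp, for 60 of 139 (43.2%). The nearest gene of a peak near the midpoint is therefore uncertain, and both genes are named below, the nearest first.

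Pairs just inside and outside the limits were as follows. The shortest interval with a peak was that of MED6, a Mediator gene, and Naa80, with 19 bp between the TSSs and rank 827 by signal. CG13751 with ana2, a centriole duplication gene, at 30 bp and CG8089 with CG7544 at 36 bp followed, with ranks 2588 and 2844. The longest were those of Rtel1, a helicase gene, and IntS6, an Integrator gene, at 493 bp and rank 352, of prg and Agpat2 at 494 bp and rank 3383, and of Pax, the paxillin gene, and Alp12 at 498 bp and rank 454. Just outside the limit were Meics and ssp2 at 501 bp and rank 3476, Ptpmeg and mth at 502 bp and rank 1508, and CG5098 and CG5757 at 505 bp, whose peak had rank 33.

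The 25 strongest divergent-pair peaks held ranks 8 to 149. Rank is by the signal value that the authors deposited with each peak, with 1 as the strongest of 3747, and the sources used here do not give the scale of the signal. The strongest of all, of rank 8 and a signal value of 1629, lay 105 bp upstream of Chro, which encodes a chromodomain protein of polytene interbands, with Ssl1, a gene of the transcription and repair factor TFIIH, on the other side (3L from 22878690 to 22879086). Its ranks in replicates 1, 2 and 3 were 8, 7 and 8. The peak between Shc, an adaptor gene of receptor tyrosine kinase signalling, and Atat, an α-tubulin acetyltransferase gene, had rank 10 and ranked 5, 9 and 17 in the replicates. Art3, an arginine methyltransferase gene, and mRpS10, a gene of the small mitochondrial ribosomal subunit, shared the peak of rank 12, which ranked 14, 10 and 10. All 3 of these peaks were among the 20 strongest regions of every replicate.

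The next peaks held ranks 16 to 52. Tcs5, a gene of tRNA modification, and CHMP2B, a gene of the membrane-remodelling complex ESCRT-III, had rank 16 and replicate ranks of 20, 14 and 16. CenG1A, a GTPase-activating protein gene, and mRpS23 had rank 20 and replicate ranks of 27, 21 and 18. Pdrg1 and Pal1, an enzyme gene of neuropeptide amidation, had rank 23 and replicate ranks of 21, 28 and 24. The RNA-binding protein gene SLIRP2 and Mkk4, a kinase gene of the stress-activated JNK pathway, had rank 39. Its replicate ranks were 63, 38 and 37, with replicate 1 the lower one. Mnat9, an N-acetyltransferase gene, and CG1792 had rank 43 and replicate ranks of 47, 45 and 46, with the summit 7 bp from the TSS of Mnat9. CG6565 and Bdp1, a gene of the RNA polymerase III factor TFIIIB, had rank 46 and replicate ranks of 44, 40 and 50. RpS27, a ribosomal protein gene, and the nuclear pore gene Nup37 had rank 52 and replicate ranks of 51, 63 and 49. Apart from Mnat9 with CG1792, CG6565 with Bdp1 and RpS27 with Nup37, at 7, 59 and 18 bp, these peaks lay 106 to 166 bp from the nearest TSS.

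The remaining 15 of the 25 strongest held ranks 65 to 149. They lay between CG32176 and Coq4, a gene of coenzyme Q synthesis, between CIA30, a complex I assembly gene, and CG7601, between CG3552 and CG3437, between the vesicle trafficking gene Vps33B and the protease gene Fur1, and between Lon, a mitochondrial protease gene, and PIG-F, a gene of glycolipid anchor synthesis. Further peaks lay between DUBAI, a deubiquitinase gene, and Tmem18, between CG5611 and Mtl, between l(2)gd1, an endosomal trafficking gene, and Reps, between CG5131 and GCS2beta, a glucosidase gene, and between Brf, another TFIIIB gene, and sds22, a phosphatase regulator gene. The last were those of Mppe with the cohesin gene pds5, RpL34b with CG8132, the peptidase gene TppII with ND-MWFE of respiratory complex I, the phosphatase gene PTPMT1 with Hrd3, a gene of protein degradation at the endoplasmic reticulum, and Rev1, a DNA polymerase gene, with MED30 of the Mediator. Each of the 25 was found in the strongest regions of every replicate, and the highest rank number of any of them in any replicate was 314, for TppII with ND-MWFE in replicate 3. Their TSSs were 129 to 492 bp apart, with a median of 257 bp.

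**Figure D3:**
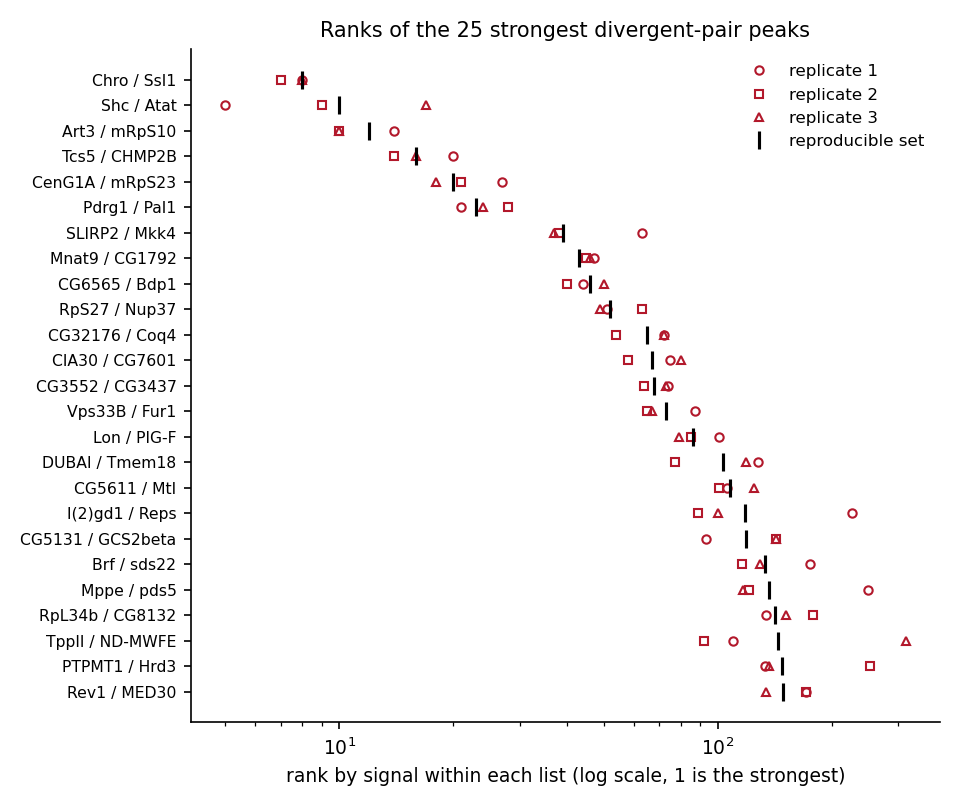
Rank by signal of the 25 strongest divergent-pair peaks in the reproducible set (bars) and in replicates 1 to 3 (open symbols), on a log axis. The replicate ranks stay between 5 and 314 and scatter more towards the bottom of the plot.

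As a class, divergent-pair peaks were not clearly stronger than other promoter peaks. Their median signal value was 159 (rank 1592), against 149 (rank 1780.5) for single-gene peaks, 135 for 343 promoter peaks at or downstream of the TSS and 137 for 1727 peaks away from promoters. Of the 100 strongest peaks, 15 were divergent-pair peaks, close to their share of the whole set. Within the strongest regions of each replicate their median signal percentile was 67.5, 55.2 and 57.3 in replicates 1, 2 and 3, and that of single-gene peaks 59.1, 53.5 and 54.8. The difference of 4.19 percentile points ± 3.64 (SD, n = 3) was positive in 3 of 3 replicates, was largest in replicate 1, and came with p = 0.25 in the exact two-sided sign-flip permutation test. Among peaks found in both other replicates the difference fell to 0.830 points without replicate 1, 0.879 without replicate 2 and 2.37 without replicate 3. It turned to -0.356 points among the 1873 strongest peaks and to -1.48 points among peaks found in all 3 replicates. The distance between the TSSs and the rank of the peak were nearly unrelated (Spearman's rho 0.016 over 581 peaks of 1 set, a description only).

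Divergent-pair peaks were found again in the replicates more often than the rest of the set. A summit within 100 bp in the strongest regions of every replicate was found for 370 of 581 (63.7%, Wilson interval 59.7 to 67.5%), where 55.4% of all 3747 peaks had one. The share was 56.8% for single-gene peaks (Wilson interval 53.8 to 59.7%) and 50.1% for promoter peaks at or downstream of the TSS. Only 5 of the 581 were found in no replicate's strongest regions. The set was itself chosen by the authors for ranks that repeat between lists, and single peaks do not count as replicates, so these shares carry no test.

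Words of 8 bases were ranked in the promoter peaks outside divergent pairs, by how much more often they occurred within 50 bp of the summit than in windows of equal length centred 300 bp to both sides, and then counted in the 581 peaks. At these peaks, with TSSs 281 bp apart in the median, most such flanks lie beyond the TSSs. Their flank values thus set promoter DNA against mainly transcribed DNA. The first 2 words, printed in capitals in the intervals above, both occurred more often at divergent-pair summits than at single-gene ones. ATCGATAG, with its reverse complement CTATCGAT, was within 50 bp of 54 of 581 summits (9.29%), against 0.947% of their flanks. It was near 5.11% of single-gene summits. CAACACTG (CAGTGTTG) was near 46 summits (7.92%), against 0.775% of their flanks, and near 3.38% of single-gene summits. Over the strongest regions of the replicates, ATCGATAG was near 8.12% ± 0.860 of divergent-pair and 4.86% ± 0.113 of single-gene summits, and CAACACTG near 6.92% ± 0.934 and 3.88% ± 0.324 (SD, n = 3 each). The differences of 3.26 percentage points ± 0.811 and 3.04 ± 0.755 had the same sign in 3 of 3 replicates (exact two-sided sign-flip permutation tests, p = 0.25 for both). The other 3 words chosen differed less between both kinds of peak. ATTTAAAA was near 6.37% of divergent-pair and 4.65% of single-gene summits, CAGCACTG near 2.75% and 2.74%, and AGTGTGAC near 2.07% and 2.83%. Over the replicates the differences were 0.853 percentage points ± 0.837, 0.134 ± 1.07 and -0.725 ± 0.317 (SD, n = 3 each, exact two-sided sign-flip permutation tests, p = 0.5, 1 and 0.25). Any of the 5 words was near 148 divergent-pair summits (25.5%), against 6.45% of their flanks, and near 190 single-gene summits (17.3%). Only 7 of the 581 windows held both first words.

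Start sites of paired genes held more of these words in general. In windows of 101 bases centred 67 bp upstream of every protein-coding TSS, ATCGATAG occurred at 6.81% of TSSs of genes in divergent pairs and 2.99% of TSSs of genes in no pair, and at 4.07% of all. CAACACTG occurred at 2.51% of TSSs of genes in pairs, 0.961% of the others and 1.40% of all. The share at the 581 summits, 9.29% and 7.92%, was nearer to this share at all paired TSSs for ATCGATAG than for CAACACTG. The windows were not placed by the words, however. Copies near divergent-pair summits were centred 38.5 bp upstream of the nearest TSS in the median for ATCGATAG, but 13 bp for CAACACTG. Many copies of CAACACTG can therefore fall outside such windows, and the contrast between both words cannot be read from these shares. Over the whole interval between the closest TSSs of a pair, ATCGATAG was in 19.9% of pairs with a peak and 13.6% of pairs without one, and CAACACTG in 8.98% and 4.10%. Pairs with a peak have wider intervals, but in the class with TSSs 201 to 300 bp apart the order was the same, with 17.2% and 13.9% for ATCGATAG and 6.37% and 3.55% for CAACACTG. At 401 to 500 bp it was turned round for ATCGATAG, with 21.4% and 23.9%.

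The median places of both words differed at divergent-pair peaks, with overlapping quartiles, but hardly at single-gene peaks. At divergent-pair peaks, the 69 copies of ATCGATAG within 50 bp of a summit were centred 38.5 bp upstream of the nearest TSS in the median (quartiles 23.5 and 63.5 bp), and the 48 copies of CAACACTG 13 bp upstream (quartiles 41.5 bp upstream and 4.75 bp downstream). At single-gene peaks the medians were 47.5 and 50 bp upstream. Only copies within 50 bp of a summit were counted, so these places also follow those of the summits. Divergent-pair peaks with CAACACTG near the summit had TSSs 206.5 bp apart in the median, against 285 bp for those without it. For ATCGATAG these medians were 253.5 and 284 bp. Whether the distance between the TSSs bears on the place of a word was not tested. Copies lay on the strand of the nearest gene 36 times and on the other 33 times for ATCGATAG, and 23 and 25 times for CAACACTG. Each palindrome CTATCGATAG counts as a copy on both strands, so the even split of ATCGATAG is partly set by the word itself.

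Other known promoter words were counted in the same windows. TATCGATA, the core of the DRE, was near 8.78% of divergent-pair and 4.47% of single-gene summits, and CGATA, a core of BEAF-32 sites that also lies within TATCGATA and ATCGATAG, near 34.6% and 26.6%, while windows at all paired TSSs held TATCGATA in 7.12% and CGATA in 33.1%. CATCNCTA was near 6.54% and 3.56%, with 3.12% at all paired TSSs, and over the replicates near 6.08% ± 0.0585 and 3.12% ± 0.193 (SD, n = 3 each, exact two-sided sign-flip permutation test of the difference, p = 0.25). The GAGA word GAGAGAG was near 2 of 581 divergent-pair summits (0.344%) and 2.19% of single-gene summits, and occurred at 2.81% of all paired TSSs. Over the replicates it was near 0.125% ± 0.109 and 2.32% ± 0.343, lower in 3 of 3 (SD, n = 3 each, exact two-sided sign-flip permutation test, p = 0.25). The flanks had the same order for GAGAGAG, with 0.947% at divergent-pair and 3.65% at single-gene peaks, so the difference is not particular to the summit. TATAAA was near 16.4% and 13.4%, with 18.0% at all paired TSSs, and its replicate values, 12.7%, 16.1% and 15.9% against 12.6%, 13.8% and 15.3%, overlapped. CAGCTG was near 8.26% and 6.20%, the Motif 1 core GGTCACAC near 2.75% and 2.83%, TGACGT near 2.93% and 2.46%, and CAGGTA, a word bound by the zygotic activator Zelda, near 1.72% and 1.92%. At all paired TSSs these 4 words occurred in 9.17%, 3.67%, 2.55% and 1.83% of windows, in the same order. A word in a window is a description and not a site of binding.

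The strongest divergent-pair peaks rarely had the DRE-type word within 50 bp of the summit. ATCGATAG was near 8 of the 193 strongest summits (4.15%), 24 of the next 194 (12.4%) and 22 of the 194 weakest (11.3%). In the same division of each replicate's divergent-pair peaks the shares were 4.45% ± 0.661, 11.0% ± 2.39 and 8.89% ± 1.38 (SD, n = 3 each), lowest in the strongest group in 3 of 3 replicates. CAACACTG showed no such step in the reproducible set, with 6.74%, 10.3% and 6.70%. Its replicate means were 5.38% ± 0.644, 8.77% ± 2.32 and 6.61% ± 1.23 (SD, n = 3 each). Its share was also lowest in the strongest group in replicates 2 and 3, and level with the weakest group in replicate 1, at 6.02%. Single-gene peaks showed little change for ATCGATAG, at 4.66%, 4.93% and 5.74% from the strongest to the weakest group. Divergent-pair summits of the strongest group also lay farther from the nearest TSS, at 79 bp in the median, against 65 and 57 bp in the middle and weakest groups. For single-gene peaks these medians were 168, 112 and 110 bp. Whether the place of the summit bears on the share with the word was not tested. None of the 25 strongest divergent-pair summits had any of the 5 words within 50 bp, where 25.5% of all 581 did. The windows of the strongest group were also poorer in G and C, with a median of 34.7% against 38.6% in both other groups, and over the replicates 34.8% ± 2.23, 38.6% ± 1.71 and 39.6% ± 1.71 (SD, n = 3 each). Single-gene peaks showed the same step, with medians of 35.6%, 40.6% and 40.6%. The division by strength was made after the words had been counted.

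**Figure D4:**
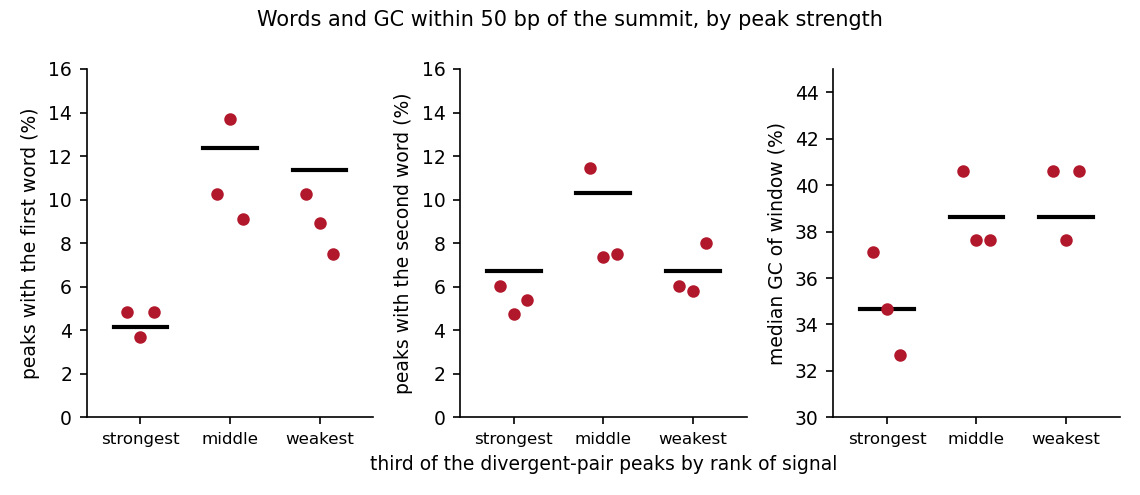
Share of divergent-pair peaks with ATCGATAG (left, the first word) and CAACACTG (middle, the second word), and median GC content (right, axis starting at 30%), within 50 bp of the summit, for the strongest 193, the middle 194 and the weakest 194 peaks. Bars are the reproducible set and points are replicates 1 to 3, each divided in the same way. The first word was near 4.15% of the strongest group, below both other groups.

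Genes of known housekeeping functions were then looked up in the divergent pairs, with 18 lists of 680 genes in all. Of the listed genes 53.8% belong to a divergent pair, against 27.3% of all protein-coding genes. Pairs with a listed gene had a peak in 131 of 361 cases (36.3%), and pairs without one in 426 of 1634 (26.1%), on either side of the 27.9% over all pairs. The lists are described by counts only, against the 29.2% of all paired genes that had a peak, and no test was made of them.

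Cytoplasmic ribosomal protein genes, which encode the subunits of the ribosome, stood highest. Of 34 such genes in divergent pairs, 24 (70.6%) had a peak between the TSSs, and 70.6% ± 10.6 over the replicates (SD, n = 3). Among those in no pair, 25 of 52 (48.1%) had an upstream peak. The first share also counts peaks nearer to the partner gene and the second does not, so they are not like for like. The strongest were RpS27 and RpL34b, described above, then RpL14 with Nelf-E, a gene of transcriptional pausing, at rank 169 and replicate ranks of 249, 224 and 126, and RpL13A with Dph4 at rank 211 and replicate ranks of 268, 342 and 159. RpL34b ranked 134, 179 and 152 in the replicates. The ribosomal protein gene was the nearest of the pair in 20 of the 25 peaks and the partner in 5. Mitochondrial ribosomal protein genes stood near the rate of all paired genes, with 14 of 54 (25.9%, and 27.8% ± 3.21 over the replicates, SD, n = 3), although 54 of the 75 genes of that list belong to a pair. There the listed gene was the nearest in 5 peaks and the partner in 9. After mRpS10 and mRpS23 came mRpL34 with Dg, the dystroglycan gene, at rank 371 and mRpS2 with the trafficking gene Mon1 at rank 743, all 4 as the partner.

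Other genes of protein synthesis and of the mitochondrion were close to the rate of all paired genes or somewhat above it. Of the aminoacyl-tRNA synthetase genes, whose enzymes load tRNAs with amino acids, 9 of 21 (42.9%) had a peak, and 34.9% ± 2.75 over the replicates (SD, n = 3). SerRS with CG17260 had rank 548, IleRS with the actin regulator gene Hem 592, GluProRS with AP-1sigma 1042 and ArgRS-m with CG17816 1270, each found in the strongest regions of every replicate. Of the translation factor genes 7 of 21 did, among them eIF1 with RpL28 at rank 425, eIF3m with CG8323 at 1467 and eRF1 with Rbbp5 at 1670. eIF4EHP with CG18428, at rank 1028, was among the strongest regions of replicate 3 alone and had no region within 100 bp in the other replicates. Of the oxidative phosphorylation genes 14 of 41 (34.1%) had a peak, but 25.2% ± 3.73 over the replicates (SD, n = 3). These included ND-MWFE, COX5A with glo at rank 576, ND-51 with CG13994 at 680 and COX6B with CG33932 at 744. Tim10 with Ppcdc, at rank 1961, was the 1 of 5 import genes with a peak.

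Genes of transcription and of RNA processing followed. Of the RNA polymerase II, general factor and Mediator genes 15 of 40 (37.5%) had a peak, led by MED30, MED27 with elm at rank 331, skd with Pdss2 at 671 and Polr2B with 140up at 776. Of the RNA polymerase I and III subunit genes 3 of 11 did, among them Polr1D with brat at rank 1640 and Polr3E with CG10584 at 3300. Splicing factor genes had 9 of 23, led by Sf3b6 with Tnpo at rank 704, BCAS2 with RpL4 at 927, Phf5a with CG31638 at 1002 and U2af50 with PIG-Q at 1272. Exosome genes, of the complex that degrades RNA from its 3′ end, had 3 of 8, namely Csl4 with Nup160 at rank 562, Rrp42 with the proteasome gene Prosbeta1 at 1089 and Dis3 with Rrp5, a gene of ribosomal RNA processing, at 1295. In none of the 581 peaks were both genes in 1 list.

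Genes of chromatin, DNA replication and the nuclear pore formed small lists, so that 1 peak moves their share by several points. Insulator and architectural protein genes had 4 of 9, namely Chro, Cp190 with CG4338 at rank 408, Cap-H2 with MED7 at 1971 and M1BP with CG8202 at 2294, and 40.7% ± 6.42 over the replicates (SD, n = 3). The peak at M1BP ranked 9909 in replicate 1, against 2131 and 2127 in replicates 2 and 3. Polycomb and trithorax group genes had 8 of 18, led by brm, the ATPase gene of a chromatin remodeller, with Arl1 at rank 588, fs(1)h with mys at 691, Sfmbt with CG5439 at 831 and Bap60 with CG12096 at 1140. DNA replication genes had 7 of 19, led by the Mcm gene dpa with the myosin gene didum at rank 485, the licensing gene dup with SRPK at 571, PCNA2 with CG10366 at 608 and PolD2 with CG13933 at 727. Nuclear pore genes had 5 of 16, with Nup160 at rank 562, Nup93-2 with CG3817 at 1889 and Nup205 with pico at 1964 after Nup37.

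The remaining lists concern protein turnover. Autophagy genes had 7 of 12 (58.3%), but 44.4% ± 4.81 over the replicates (SD, n = 3), led by Atg17 with Xe7 at rank 433, Atg18a with the nuclear receptor gene ERR at 904, Atg2 with CG12093 at 2043 and Atg9 with CG7747 at 2316. Proteasome genes stood lowest, with 4 of 24 (16.7%, and 18.1% ± 2.41 over the replicates, SD, n = 3), namely Prosbeta1, Rpn2 with Slbp at rank 1313, Rpt5 with RanBP3 at 1538 and Rpn6 with ave at 2034. COP9 signalosome genes had 3 of 6, namely alien with CG18661 at rank 866, CSN3 with CG11456 at 1576 and CSN5 with CG42232 at 3740. Of the chaperonin subunit genes CCT7 with Pif1B, at rank 2699, was the 1 of 4 with a peak.

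**Figure D5:**
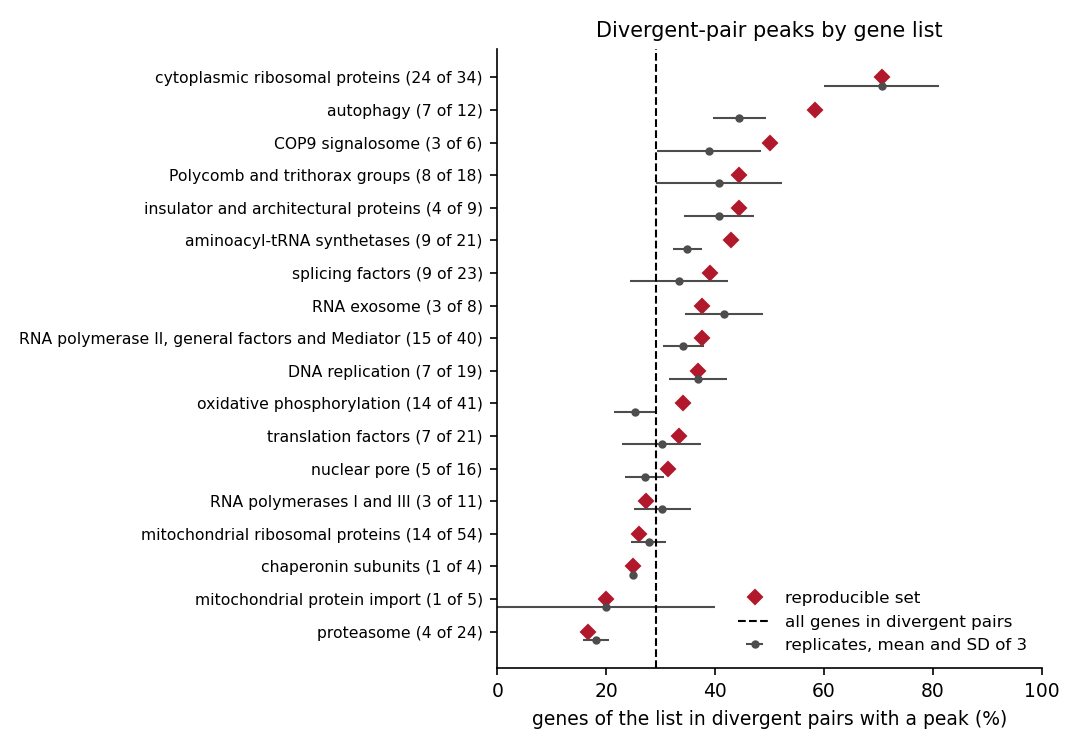
Share of the genes of each list, among those in divergent pairs, that have a peak between the TSSs in the reproducible set (diamonds) and over the 3 replicates (dots, mean, with bars of 1 SD). The dashed line marks the 29.2% of all paired genes. Cytoplasmic ribosomal proteins stand at 70.6% and the proteasome at 16.7%.

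In 24 pairs there were 2 peaks. The widest of these, yem with Ctl2 at 491 bp, had peaks of ranks 749 and 1026, and the narrowest, CG10747 with Pyroxd1 at 87 bp, of ranks 259 and 3381. The strongest peaks of such pairs were those of RpL34b with CG8132 (ranks 142 and 2596), Kap-alpha3 with Son (213 and 1067), Irbp18 with APP-BP1 (240 and 1839), Herp with r2d2 (242 and 1134), Mic26-27 with CG5916 (392 and 1104), Cp190 with CG4338 (408 and 1121), Xe7 with Atg17 (433 and 1501) and the histone variant gene His2Av with ball (434 and 2866). The others were CRIF with SMC5, Rrp1 with gammaTub23C, shop with htk, Bap60 with CG12096, Sfmbt with CG5439, CG1602 with PIG-G, SCCRO3 with Sans, CG6664 with CG7728, M1BP with CG8202, CG11975 with E(var)3-9, PIG-L with psidin, CG13850 with lqfR, CG18428 with eIF4EHP and CG5746 with CG6454. Genes with several TSSs can place 2 summits of 1 pair in different intervals.

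Of the 1438 pairs with none of the 581 peaks, 466 (32.4%) had between their TSSs a summit of the pooled list, whose 29054 regions include background, and 202 had a reproducible summit within 500 bp that did not meet the rule. By chromosome, a peak was found at 33.0% of pairs on 3R, 28.6% on 3L, 26.0% on 2R, 25.6% on X, 24.2% on 2L and 0 of 7 on chromosome 4. The Wilson interval on 3R, 29.2 to 37.1%, did not overlap that on 2L, 20.2 to 28.7%, and overlapped those on 3L, 2R and X. Over the replicates the share was 30.5% ± 1.89 on 3R and 23.4% ± 2.16 on 2L (SD, n = 3 each). Median G and C content hardly differed, with 35.1% in 538 intervals of pairs with a peak and 35.3% in 1276 of pairs without one. The upper quartiles were 39.9% and 42.3%, and the shortest intervals were left out of these values.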

How the data were processed

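The deposited files are peak lists in dm6 and dm3; the dm3 lists were not used. Signal values were deposited by the authors with each peak and served only to rank peaks within a list. The reproducible set was thresholded by the irreproducible discovery rate (IDR), per the deposited records, and the labels call the replicates biological. The peak caller, aligner, thresholds and read depth are not given here by labels or headers, so precision rests on counts: 95% Wilson intervals cover counting error only, and peaks are not independent replicates.

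Summits are the region start plus the deposited offset, given from 1. TSSs are those of protein-coding transcripts of Ensembl release 115 (BDGP 6.54, the same assembly as dm6), with 13968 genes, and sequences are from that genome. Replicate differences were tested by exact sign-flip permutation. Members, gene lists and words were chosen with earlier results of these data known. The exosome list was corrected after its values were seen, by removing genes that are not subunits. Named genes are those of the 25 strongest peaks, up to 4 genes a list, the pairs at the limits and pairs with several peaks. 1 of these genes is not reported here. Alternatives were other promoter windows, TSS distances, TSS sets, peak subsets, matching distances, word lengths and windows, and leaving out each replicate. The rule, word search and permutation test were tested on simulated data. Python 3.11.15, numpy 2.4.6 and scipy 1.17.1 were used.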

Additional observations from a re-analysis of the deposited data

How the results depend on the processing

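Of 93 alternative values of 8 results, 47 kept their direction and stayed within the replicate spread or within 1.5 times a count, 44 moved beyond it and 2 changed sign. The promoter window moved the divergent share of upstream summits to 41.0% at 250 bp and 31.3% at 1000 bp. It could not change the 581 peaks themselves, which all lie within 244 bp of the nearest TSS. Their number, their distances, the share found in all 3 replicates and the share of pairs were therefore fixed under it, and count among the 47. With the opposite TSS within 250 bp there were 212 peaks, 12.6% of upstream summits, with a median distance of 43 bp, TSSs 180.5 bp apart, a peak at 20.6% of pairs and the leading word at 12.7% of summits. Within 1000 bp the share was 45.9%, the TSSs were 327 bp apart and the leading word, then CAACACTG, was at 6.63%. Canonical TSSs gave 34.1%, 290 bp and 6.53%, again for CAACACTG. TSSs of all biotypes gave 35.3% and a peak at 18.0% of pairs, whose number is then larger. The 1873 strongest peaks gave 333 divergent-pair peaks, 36.6%, 73 bp, 91.0% found in all 3 replicates, 16.1% of pairs, 8.11% with the leading word and a signal difference of -0.356 percentile points. Peaks in the strongest regions of all 3 replicates gave 370 divergent-pair peaks, 37.3%, 276.5 bp between TSSs, 18.3% of pairs and a difference of -1.48 points. These subsets hold fewer peaks; beyond that the cause was not tested. Summits matched within 50 and 250 bp gave 49.7% and 71.4% found in all 3 replicates. The leading word was at 4.65% within 25 bp of the summit, and at 15.0% (TATCGATA) within 100 bp; words of 6 and 7 bases gave 21.3% (TATCGA) and 15.1% (ATCGATA).

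Without each replicate in turn, the number of peaks ranged from 400 to 424, the share of upstream summits from 35.6 to 37.4%, the distance to the nearest TSS from 69 to 70 bp, the distance between TSSs from 274 to 281 bp, the signal difference from 0.830 to 2.37 points, the share of the 581 peaks found in both remaining replicates from 68.8 to 73.0%, the share of pairs from 19.7 to 20.9% and the leading word from 8.25 to 9.69%. No paired analysis was possible because there is 1 group; the sign-flip tests pair values within each replicate. With 3 replicates and unknown depth, signal below the authors' threshold was not assessed.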

Other observations

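None of the 25 strongest divergent-pair peaks lay on X, whose strongest such peak had rank 270, while 5 of the 25 strongest single-gene peaks, of ranks up to 63, did. On X as a whole 76 divergent-pair and 205 single-gene peaks were found. Of the 25 strongest single-gene summits 3 had any of the 5 words within 50 bp, against 0 of the 25 strongest divergent-pair summits. Over all summits the shares were 17.3% for single-gene and 25.5% for divergent-pair peaks. These counts were made after the values were seen and have no test.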
